A study of Sus scrofa with 10 samples.

Results

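The genes described are the F-box proteins of pig liver and the scaffold they dock on: every gene of the deposited liver table whose pig symbol begins with FBXO, FBXL or FBXW, together with SKP1, SKP2, CUL1 and RBX1, provided that at least 1 library had a value above 0. The table held 25009 gene identifiers, of which 11779 carried a symbol and 18768 had a value above 0 somewhere. The rule found 44 members, 25 FBXO, 11 FBXL and 6 FBXW genes with SKP2 and CUL1. FBXO34 was listed at 0 in all 10 libraries and lies just outside the rule, while FBXO41, the member nearest to it, reached 0.03 RPKM in high replicate 5. For SKP1 and RBX1 no identifier carried the symbol, and neither gene is analysed here. The pig gene names used held 60 entries with a symbol of the rule, and 45 of them were in the liver data. The 44 members are thus not the whole family.

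The data were 10 liver samples of male pigs, all given the same age, 175, in a unit that the labels leave out. Of these, 5 were labelled high and 5 low for growth and fatness, and no breed, treatment or batch is given in the labels. Each library had 1 RPKM value per gene, that is, reads scaled by gene length and by how many reads mapped, so levels can be compared between genes. Total RPKM was 539327 to 567220 per library, the absolute depth is unknown, and 16195 to 16802 genes had a value above 0. Whether each sample is a different animal is not in the labels, and p-values reflect how much these samples vary. In bulk tissue fewer cells of a type and less RNA per cell cannot be told apart. Of 12 listed hepatocyte genes 11 were matched and all 11 were above 0, with the albumin gene ALB at 23864 to 52025 RPKM in high and 22922 to 48463 RPKM in low.

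F-box proteins are the interchangeable substrate receptors of the SCF ubiquitin ligases. In such a complex CUL1 is the scaffold, RBX1 brings the charged ubiquitin-conjugating enzyme, SKP1 is the adaptor, and the F-box protein binds both SKP1 and the protein to be tagged for degradation. FBXW proteins recognise their substrates through WD40 repeats, FBXL proteins through leucine-rich repeats, and FBXO proteins through other domains. In liver, members of the family act on iron regulatory proteins, lipogenic transcription factors and mitochondrial turnover.

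The scaffold gene CUL1 (ENSSSCG00000015455) was steady. It had 14.6, 13.7, 14.0, 12.7 and 11.8 RPKM in high replicates 1 to 5, and 13.45, 15.49, 11.14, 11.63 and 12.2 RPKM in low replicates 1 to 5. The groups overlapped, and the highest value was 1.39 times the lowest. Against this scaffold, the 43 F-box genes summed to 213 ± 16.2 RPKM in high and 224 ± 10.3 RPKM in low (SD, n = 5 each). That was 0.0387% ± 0.00335 of all RPKM in high and 0.0404% ± 0.00180 in low.

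A few receptors made up much of the pool. The 5 most abundant of the 43 genes were FBXL5, FBXO9, FBXW5, FBXO8 and FBXO21. They held 39.3% to 44.2% of the summed F-box RPKM in high and 39.9% to 44.0% in low. F-box genes under other symbols lie outside this sum and the counts below. Among them KDM2A, with 13.7 RPKM in high and 14.5 RPKM in low, reached a level like that of FBXO8 and FBXO21. By mean over all libraries, 6 F-box genes reached at least 10 RPKM, 9 lay between 5 and 10 RPKM, 16 between 1 and 5 RPKM, 8 between 0.1 and 1 RPKM and 4 below 0.1 RPKM. In single libraries 30 to 31 F-box genes were at 1 RPKM or more in high and 29 to 34 in low.

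**Figure D1:**
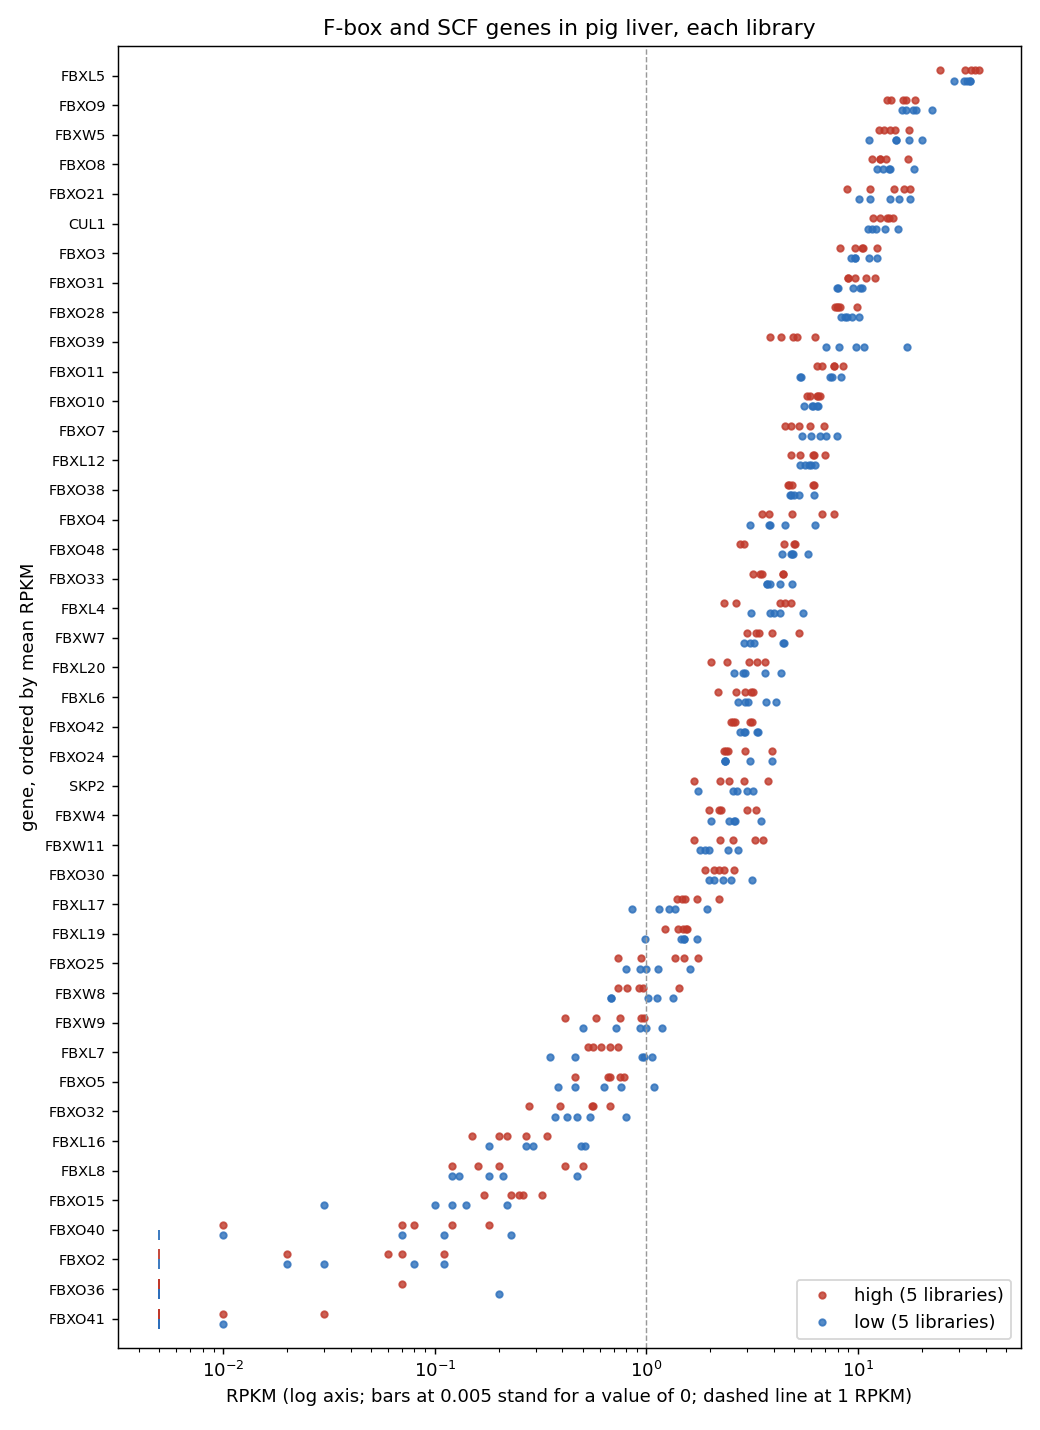
RPKM of 43 of the 44 genes in each library on a log axis, genes ordered by mean level, with high above low in each row and short bars at the left edge for values of 0. FBXL5 leads at 24.3 to 37.5 RPKM, most genes have overlapping groups, and FBXO39 is the member whose high libraries (3.84 to 6.24 RPKM) all lie under its low libraries (7.03 to 17.1 RPKM).

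FBXL5 (ENSSSCG00000008740), the iron-sensing receptor that marks iron regulatory protein IREB2 for degradation when iron is plentiful, was the most abundant. It had 37.5, 35.7, 24.3, 34.0 and 32.0 RPKM in high replicates 1 to 5, and 28.5, 32.8, 33.8, 33.6 and 31.7 RPKM in low replicates 1 to 5. Both the highest and the lowest value belonged to high, and the low values lay between them. Its level stood above 92.1% of the genes with any value, and it alone held 12.8% to 18.2% of the F-box RPKM in high and 12.4% to 15.2% in low. The mRNA of its substrate IREB2 had 0.572 ± 0.0733 RPKM in high and 0.432 ± 0.198 RPKM in low (SD, n = 5 each).

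The next receptors lay well below that level. FBXO9, which acts on regulators of the mTOR kinase, averaged 15.9 ± 1.98 RPKM in high and 18.4 ± 2.40 RPKM in low (SD, n = 5 each). FBXW5, which also serves a CUL4 ligase, had 14.5 ± 1.92 RPKM in high and 15.7 ± 3.22 RPKM in low. For FBXO8, which carries a Sec7 domain besides its F-box, the means were 13.5 ± 2.13 RPKM in high and 14.4 ± 2.39 RPKM in low. FBXO21 had 13.8 ± 3.67 RPKM in high and 13.8 ± 3.02 RPKM in low, and FBXO3 had 10.24 ± 1.47 RPKM in high and 10.43 ± 1.29 RPKM in low. In FBXO9 the difference of means slightly exceeded the SD of either group, in the other 4 genes it was smaller, and in all 5 the groups overlapped.

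Receptors with well-known substrates were present at middle levels. FBXO31, a receptor for cyclin D1, had 10.1 ± 1.32 RPKM in high and 9.22 ± 1.17 RPKM in low (SD, n = 5 each). FBXO11, which acts on the repressor BCL6, had 7.39 ± 0.821 RPKM in high and 6.77 ± 1.37 RPKM in low. The receptor of MYC, cyclin E and the lipogenic SREBP factors, FBXW7, had 3.77 ± 0.885 RPKM in high and 3.61 ± 0.754 RPKM in low. SKP2, which marks the cell cycle inhibitor CDKN1B, had 2.60 ± 0.781 RPKM in high and 2.64 ± 0.551 RPKM in low, and FBXW11, a receptor of beta-catenin and NFKBIA, had 2.65 ± 0.763 RPKM in high and 2.15 ± 0.389 RPKM in low. None of these genes had groups that were apart.

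A pair of members acts on mitochondria. FBXO7, which works with the parkin pathway of mitophagy, had 5.24, 6.87, 4.84, 5.92 and 4.51 RPKM in high replicates 1 to 5, and 7.93, 6.0, 5.41, 7.05 and 6.64 RPKM in low replicates 1 to 5. Its mean was 5.48 ± 0.940 RPKM in high and 6.61 ± 0.968 RPKM in low, and the groups overlapped. FBXL4, a mitochondrial outer membrane protein that restrains mitophagy, had 2.32, 4.83, 2.66, 4.49 and 4.28 RPKM in high, and 4.01, 3.11, 4.27, 5.47 and 3.82 RPKM in low. Its lowest values were in high replicates 1 and 3 and low replicate 2.

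FBXO32, FBXO40, FBXO2 and FBXO41 were under 1 RPKM in every library. FBXO32, the muscle atrophy receptor also called atrogin-1, had 0.28 to 0.67 RPKM in high and 0.37 to 0.80 RPKM in low, and its muscle partner TRIM63 was at 0.15 RPKM or less in every library. FBXO40, a receptor of muscle, lay between 0.01 and 0.18 RPKM in high and between 0 and 0.23 RPKM in low. The 4 matched genes of a muscle list summed to 3.43 to 7.17 RPKM in high and 3.88 to 15.3 RPKM in low. Most of that was DES, which smooth muscle and stellate cells also express, while MYL1 was at 0 in all libraries, ACTA1 at 0.10 RPKM or less and TNNC2 at 0.34 RPKM or less. FBXO2, which binds glycoproteins in neurons, had 0 to 0.11 RPKM in both groups, and FBXO41 had at most 0.03 RPKM. The mean log2 level of 12 matched nervous system genes was 1.0 and 1.05 in high replicates 1 and 5 and 0.25 to 0.46 elsewhere, with none at 0 in all libraries. No member had values there that were at least 3 times those of the other 8 libraries. FBXO5, an inhibitor of the anaphase-promoting complex in dividing cells, had 0.664 ± 0.125 RPKM in high and 0.664 ± 0.280 RPKM in low.

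The members differed in how much they varied over the libraries. Among the 32 members with a mean of at least 1 RPKM, the highest library was between 1.20 and 4.44 times the lowest, with a median of 1.72, where all 10931 genes at that level had a median of 2.02. The median SD of log2(RPKM + 1) over the 10 libraries was 0.20 for the 32 members and 0.26 for all genes at that level. The steadiest was FBXO10, at 5.74 to 6.64 RPKM in high and 5.55 to 6.49 RPKM in low, whose SD exceeded that of only 0.2% of those genes. At the other end stood FBXO39, with an SD above that of 92.9% of them, followed by FBXO4 and FBXO21. FBXO25, the last member above the limit, averaged 1.18 RPKM, and FBXW8, the first below it, 0.968 RPKM. The 12 members under the limit were left out of the tests, like all genes under it.

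Several members shared an order of libraries that did not follow the groups. FBXO4, a receptor that acts on the telomere protein TERF1, had 7.69, 3.78, 6.78, 4.86 and 3.52 RPKM in high replicates 1 to 5, and 3.80, 6.23, 3.83, 3.08 and 4.52 RPKM in low replicates 1 to 5. Its 3 highest values were thus in high replicates 1 and 3 and low replicate 2. CUL1 and FBXO38 shared that order, giving 3 of 32 tested members, where 12.2% of all tested genes showed it. In the opposite order, with those libraries lowest, were FBXL4, FBXL12, FBXL20 and FBXW4, 4 of 32 members, against 7.73% of all tested genes. Neither count is read as particular to the members, and these libraries were chosen because earlier results of the data had set them apart.

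High and low livers were compared to find transcripts that go with growth and fatness. FBXO39 (ENSSSCG00000017886), an F-box protein whose substrates are little known, was the member that stood out. It had 5.13, 4.92, 4.31, 3.84 and 6.24 RPKM in high replicates 1 to 5, and 9.81, 7.03, 8.14, 10.7 and 17.1 RPKM in low replicates 1 to 5. Every high library lay below every low library, with low replicate 5 well above the rest. FBXO39 made up 1.78% to 2.70% of the summed F-box RPKM in high and 3.19% to 8.19% in low. By mean, it ranked 11th among the members, just ahead of FBXO11.

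The difference in FBXO39 was -0.93 on the log2(RPKM + 1) scale (SE 0.20, 95% interval -1.37 to -0.48, high minus low), the third smallest unadjusted p (0.000777) of 10931 genes in limma. Adjusted over all genes by the Benjamini-Hochberg method it did not pass (adjusted p = 0.961). An exact permutation test over 252 assignments gave p = 0.00794, the smallest it can give. Any gene whose groups do not overlap gets this value, so it adds nothing to the lack of overlap. Leaving out single libraries moved the difference between -0.75, without low replicate 5, and -1.04, without low replicate 2, and without high replicates 1 and 5 together it was -1.05. FBXO39 was singled out from these same data, so its value is a description of these 10 libraries.

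**Figure D2:**
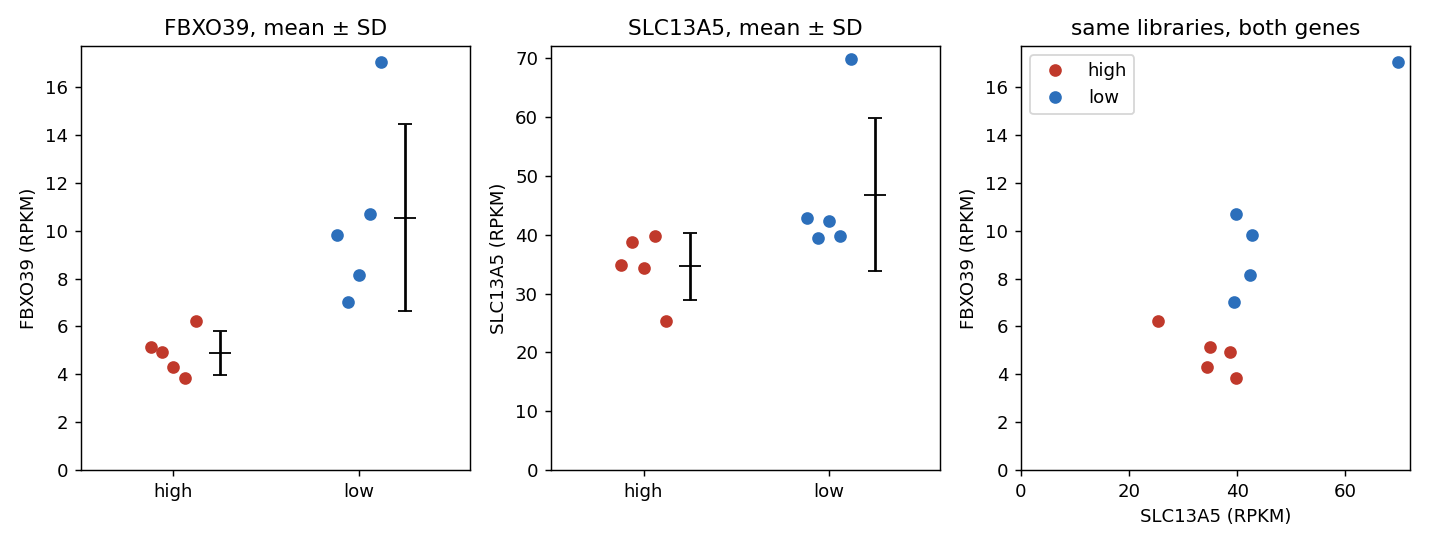
RPKM of FBXO39 and of SLC13A5 in the high and low libraries, with the mean and SD beside the points, and both genes against each other in the same libraries. FBXO39 lies at 3.84 to 6.24 RPKM in high and 7.03 to 17.1 RPKM in low without overlap, SLC13A5 overlaps between the groups, and low replicate 5 is the highest library for both.

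The position of FBXO39 bears on how its reads can be read. In the RefSeq annotation of Sscrofa11.1, a later build than that of the files, its gene model on chromosome 12 overlaps those of SLC13A5, XAF1 and C12H17orf100, and the library kit does not mark strand. SLC13A5 (ENSSSCG00000017888), the citrate transporter of hepatocytes, had 34.9, 38.7, 34.4, 39.7 and 25.4 RPKM in high replicates 1 to 5, and 42.8, 39.4, 42.3, 39.7 and 69.8 RPKM in low replicates 1 to 5. Its log2 difference was -0.40 (SE 0.18, unadjusted p = 0.0462, adjusted p = 0.961, limma). Over the 10 libraries, with high and low pooled, both genes were positively correlated on the log2(RPKM + 1) scale. Both had the lower mean in high, which enters this correlation, and none was computed for these genes within a group. Pearson's r was 0.690 (permutation p = 0.0315) and Spearman's rho 0.650 (permutation p = 0.0472). Without low replicate 5 and high replicate 5, the libraries farthest from the median of SLC13A5, r was 0.636. Low replicate 5 was highest in both genes, while high replicate 5 was the lowest of SLC13A5 and the highest of the high group for FBXO39. High replicate 4 had the most SLC13A5 of the high group and the least FBXO39 (3.84 RPKM). Within high the genes thus did not rise together.

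The ratio of FBXO39 to SLC13A5 was 0.0967 to 0.246 in high and 0.179 to 0.269 in low, so the groups overlapped on that measure through high replicate 5 (0.246). In the other 4 high libraries the ratio was 0.0967 to 0.147, below every low library. With SLC13A5 as a covariate, an alternative chosen after the values were seen, the difference in FBXO39 was -0.72 (unadjusted p = 0.0148, adjusted p = 0.939, limma). Of 2 nearby genes outside the overlap, chosen after their values were seen, both had overlapping groups. MED31, a Mediator subunit, averaged 7.31 ± 0.988 RPKM in high and 8.56 ± 0.963 RPKM in low, and MYBBP1A 18.2 ± 6.66 RPKM in high and 16.3 ± 6.45 RPKM in low (SD, n = 5 each). Whether FBXO39 reads come in part from overlapping transcripts was not tested. In all, 12 of the 43 members placed on a chromosome there overlap another protein-coding gene, among them FBXO8 with CEP44, FBXO11 with MSH6, FBXO24 with PCOLCE, FBXL6 with SLC52A2 and FBXW4 with DPCD, and their values are uncertain in the same way.

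Markers of other cells were compared beside FBXO39, which is known as a transcript of testis. In a list of 9 testis genes, 8 were matched, and ACR, PRM1, PRM2 and TNP1 were at 0 in every library. The list summed to 14.6 to 23.2 RPKM in high and 11.98 to 34.3 RPKM in low, nearly all of it from SYCP3. T and NK cell genes were lower in high, as FBXO39 was: 8 of 8 tested genes had the lower mean there, 3 of them at an unadjusted p under 0.05 in limma, where 4.55% of all tested genes were called and 2.28% were higher in low. The 9 identifiers above 0 summed to 19.0 to 35.2 RPKM in high and 26.8 to 56.2 RPKM in low, with no matched gene at 0. The macrophage list had the lower mean in high for 5 of 6 tested genes and summed to 361 to 398 RPKM in high and 310 to 565 RPKM in low. Their part in the result was not tested.

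No other member reached an unadjusted p under 0.05. Of the 32 tested members 13 had the higher mean log2 level in high and 19 the higher one in low, with a median log2 difference of -0.020, beside -0.0049 over all tested genes. That median had no stable sign: with single libraries left out it lay between -0.065, without high replicate 5, and 0.0080, without low replicate 3. It was -0.059 without low replicate 5, -0.041 without high replicate 2, -0.033 without low replicate 2 and -0.031 without high replicate 4, and above 0 at 0.0076 without high replicate 3, at 0.0028 without low replicate 4 and at 0.00063 with trimmed-mean scaling. With limma, 0 members passed the adjusted threshold of 0.05, where 0% of all tested genes did. At an unadjusted p under 0.05 there was 1 member of 32, where 4.55% of all tested genes did so (2.27% higher in high and 2.28% higher in low). Also 1 member had groups that did not overlap, where 0.805% of all tested genes had.

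After FBXO39 the smallest p belonged to FBXO7, with a log2 difference of -0.23 (SE 0.13, unadjusted p = 0.0971, limma). FBXO48 followed at -0.27 (SE 0.15), with 2.88, 5.02, 2.78, 4.47 and 4.98 RPKM in high replicates 1 to 5 and 4.38 to 5.78 RPKM in low. High replicates 1 and 3 alone were low there, and the other high libraries lay within the range of low. FBXO9 differed by -0.20 (SE 0.12). Among genes with the higher mean in high, FBXL17, a quality control receptor for BTB domain proteins, differed by 0.21 (SE 0.14) and FBXO4 by 0.24 (SE 0.21). For the abundant FBXL5 the interval of the log2 difference was -0.27 to 0.30, for CUL1 -0.18 to 0.31 and for FBXW7 -0.28 to 0.38, so larger differences than these are outside the 95% intervals of these 10 libraries.

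**Figure D3:**
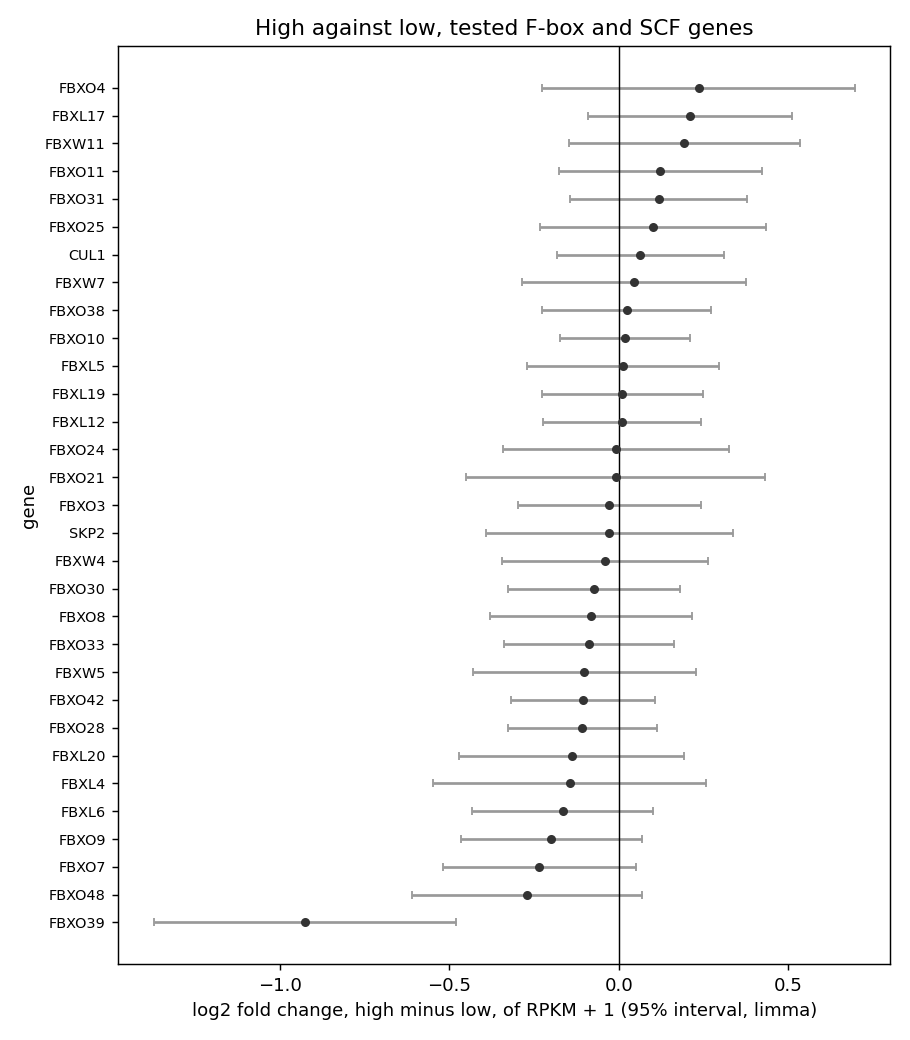
Log2 difference of high minus low on the RPKM + 1 scale for 31 of the 32 tested genes, with 95% intervals from limma not adjusted for the number of genes. The interval of FBXO39 (-1.37 to -0.48) lies below 0, and the intervals of the other 30 include 0.

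Of the 12 members under 1 RPKM, FBXO15, known in mouse as a target of the stem cell factor OCT4, was the one with a small p when no filter was applied. It had 0.32, 0.25, 0.17, 0.26 and 0.23 RPKM in high replicates 1 to 5, and 0.12, 0.10, 0.22, 0.14 and 0.03 RPKM in low replicates 1 to 5. The groups overlapped through high replicate 3 and low replicate 3. Its log2(RPKM + 1) difference was 0.15 (SE 0.047, unadjusted p = 0.00828, adjusted p = 0.929, limma), a scale that understates changes at such levels. The other 11 had unadjusted p-values of 0.131 or more.

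The authors' deposited table, whose test is not stated, gave 3 of 44 members a p under 0.05, beside 4.55% of all genes with a value above 0. These were FBXO39 (fold 2.21, p = 0.03), FBXL17 (fold -1.31, p = 0.04) and FBXO15 (fold -2.26, p = 0.00408) in the authors' deposited table. There a positive fold goes with the higher mean in low: in 39 of the 42 members with a fold other than 1, the authors' sign was opposite to that of high minus low.

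The members were also set against the acute-phase level of each library, the mean log2(RPKM + 1) of 12 plasma protein and inflammation genes among them CRP, C3, LBP and the fibrinogen chains FGB and FGG. Of 22 genes listed for that level, 12 were matched. Each of the 12 enters the level, yet 10 had a positive and 2 a negative slope on it. Of the 12, 5 passed an adjusted p under 0.05 in limma, so the genes of the level did not all move together. The level was 8.74 to 9.36 in high and 8.21 to 9.64 in low, with low replicate 4 lowest and low replicate 2 highest. Of all tested genes outside that list, 2.31% passed an adjusted p under 0.05 in limma (1.50% with a positive and 0.806% with a negative slope), and 0 of 32 members did. At an unadjusted p under 0.05, 27.5% of those genes and 6 of 32 members were called. Of these members, 2 had a positive slope, FBXO11 and FBXO4, where 17.5% of genes were called in that direction, and 4 a negative slope, FBXW4, FBXL4, FBXL20 and FBXO24, where 10.0% were. The median slope of the members was -0.11 log2 units per unit of the level, beside 0.093 over all tested genes. Cell type markers moved along the same level, in both directions. Of 11 hepatocyte genes, 8 had a negative slope, with a median of -0.53, and at an unadjusted p under 0.05 in limma 5 were called with a negative and 1 with a positive slope. The hepatocyte genes summed to 29887 to 66318 RPKM in high and 30990 to 63698 RPKM in low, with none at 0. All 8 tested T and NK cell genes had negative slopes, 1 of them called. Over all 10931 tested genes, 6551 had a positive and 4380 a negative slope. Beside that, slopes were positive for 5 of 6 stellate, 3 of 3 cholangiocyte, 4 of 6 macrophage and 3 of 5 endothelial genes. At an unadjusted p under 0.05 in limma, 1 cholangiocyte and 1 endothelial gene were called with a positive slope. The 1 stellate gene called had a negative slope, and macrophage genes gave 1 call in each direction. These small counts are not read as a lean of the lists. The part of these markers in the members' slopes was not tested.

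FBXW4, a WD40 receptor also called dactylin, had the smallest p. It had 2.19, 3.28, 1.98, 2.97 and 2.25 RPKM in high replicates 1 to 5, and 2.60, 2.01, 2.61, 3.47 and 2.46 RPKM in low replicates 1 to 5, highest where the acute-phase level was lowest. Its slope was -0.44 (SE 0.13, unadjusted p = 0.00508, adjusted p = 0.0702, limma), Pearson's r was -0.857 (permutation p = 0.00035) and Spearman's rho -0.794 (permutation p = 0.00853) over 10 libraries. With quantile normalization its adjusted p was 0.0477 in limma, the one setting in which a member passed. FBXL4 had a slope of -0.55 (SE 0.19), r of -0.710 and rho of -0.758, with permutation p-values of 0.0199 and 0.0147. For FBXO11, with 5.35 and 5.31 RPKM in low replicates 4 and 5 and 6.39 to 8.46 RPKM elsewhere, the slope was 0.41 (SE 0.14), r was 0.765 and rho 0.760 (permutation p = 0.0101 and 0.0136).

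FBXO4 had a slope of 0.60 (SE 0.23), r of 0.643 and rho of 0.673, with permutation p-values of 0.0392 and 0.0396. FBXL20, known in mouse as a regulator of synaptic vesicle release, had r of -0.660 and rho of -0.624 (permutation p = 0.0373 and 0.0604). FBXO24 had r of -0.640 and rho of -0.267 (permutation p = 0.0359 and 0.453). These are 6 of 32 relations computed, and adjusted over all genes in limma none passed, with adjusted p-values of 0.0702 to 0.171.

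Without low replicate 4 the relations were fewer. There 0 of all tested genes passed the adjusted threshold, and 2 members, FBXW4 and FBXO30, had an unadjusted p under 0.05 in limma. With low replicate 4 and high replicate 2 both left out, the libraries farthest from the median level, r was -0.653 for FBXW4, -0.498 for FBXL4, 0.635 for FBXO11, 0.484 for FBXO4, -0.461 for FBXL20 and -0.268 for FBXO24, and no member reached an unadjusted p under 0.05. For neither of these fits was the share of all tested genes at an unadjusted p under 0.05 computed. Whether the members lost more relations than other genes therefore cannot be said. Over all 10 libraries FBXO39 had a slope of -0.36 (SE 0.44, unadjusted p = 0.424, limma). With the acute-phase level as a covariate its difference between high and low was -0.91.

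**Figure D4:**
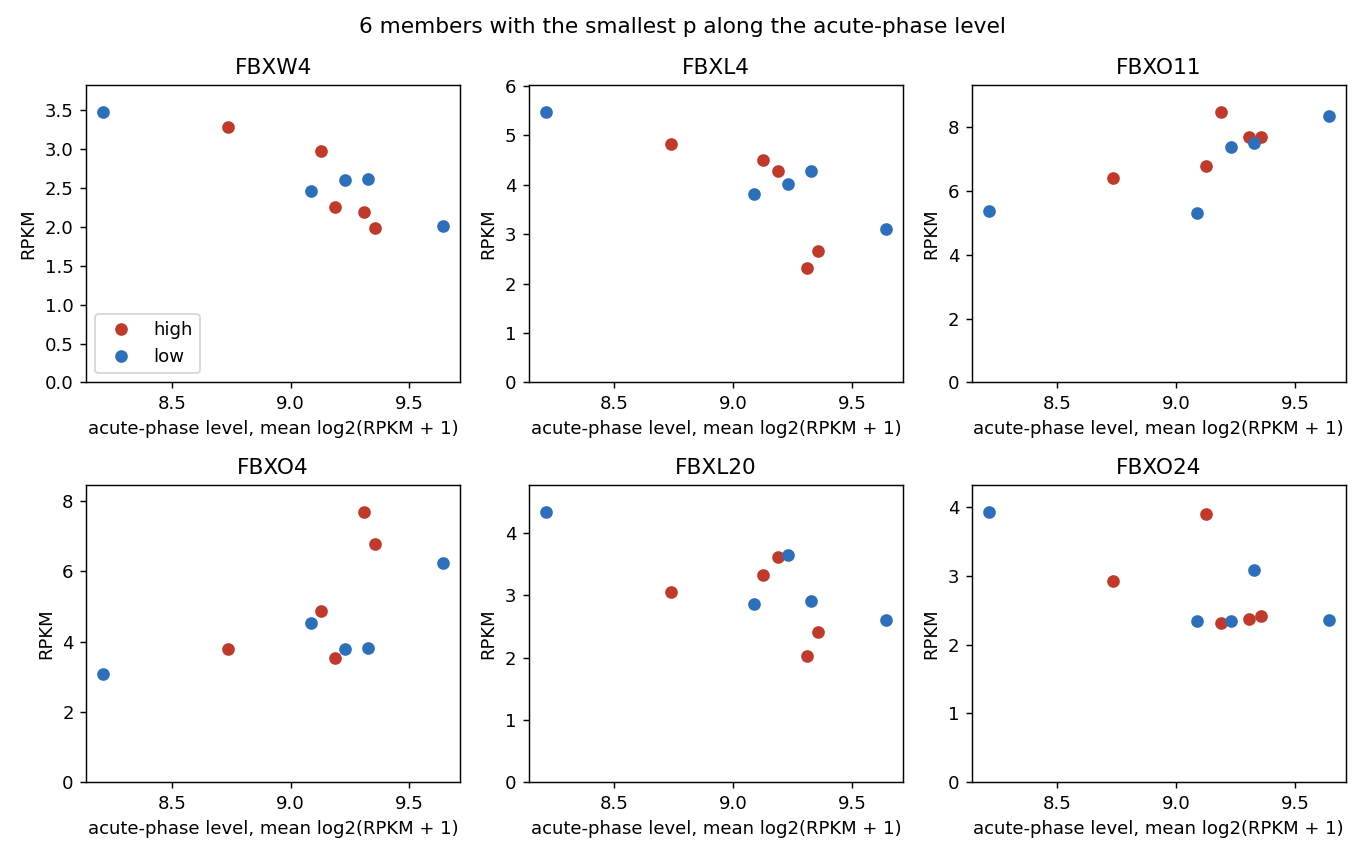
RPKM of the 6 members with the smallest p against the acute-phase level of each library, the mean log2(RPKM + 1) of 12 genes, with high and low libraries in different colours. FBXW4, FBXL4, FBXL20 and FBXO24 have their highest value in low replicate 4 at the left (level 8.21), where FBXO4 has its lowest.

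The rest of the ubiquitin ligase machinery was followed through lists of genes. Of 13 listed genes for attaching NEDD8 to cullins and exchanging their receptors, 8 were matched and 7 tested, with the mean log2 level of 4 higher in high, of 3 higher in low and 0 past the adjusted threshold in limma. CAND1, which strips F-box proteins from CUL1 so that others can bind, had 11.9 ± 1.92 RPKM in high and 9.20 ± 1.89 RPKM in low (log2 difference 0.35, unadjusted p = 0.0395, adjusted p = 0.961, limma). DCUN1D2, a co-factor of cullin neddylation, had 2.64 ± 0.513 RPKM in high and 3.46 ± 0.617 RPKM in low (unadjusted p = 0.0466, limma). These were 2 of 7 genes at an unadjusted p under 0.05, in opposite directions and without an adjusted call, where 4.55% of all tested genes were called.

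The COP9 signalosome, which removes NEDD8 again, had 7 tested subunits, 4 of them higher in high, and 0 at an unadjusted p under 0.05 in limma. COPS8 had 14.9 ± 1.88 RPKM in high and 17.7 ± 2.80 RPKM in low, and COPS2 15.5 ± 3.05 RPKM in high and 13.0 ± 4.10 RPKM in low (SD, n = 5 each). Of 10 tested genes of the other cullin ligases 4 were higher in high and none was called. DDB1, the adaptor of the CUL4 ligases, had 35.1 ± 3.85 RPKM in high and 29.1 ± 6.12 RPKM in low, and CUL3 10.3 ± 0.632 RPKM in high and 9.14 ± 1.14 RPKM in low. The 4 tested genes of ubiquitin supply and conjugation gave no call either, with the polyubiquitin gene UBB at 1002 ± 215 RPKM in high and 905 ± 135 RPKM in low. UBB consists of near-identical ubiquitin repeats, so the placement of its reads is uncertain.

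Genes listed as F-box proteins under other symbols gave no call, with 0 of 3 at an unadjusted p under 0.05 in limma. The 3 were TSPAN17, KDM2A and BTRC. TSPAN17, a tetraspanin gene whose place among F-box proteins is uncertain, had 3.86 ± 0.863 RPKM in high and 4.55 ± 0.570 RPKM in low. The histone demethylase KDM2A had 13.7 ± 1.54 RPKM in high and 14.5 ± 2.49 RPKM in low. BTRC, the closest relative of FBXW11, had 2.33 ± 0.402 RPKM in high and 2.24 ± 0.373 RPKM in low. The list of known substrates had 16 tested genes, 3 with the higher mean log2 level in high and 13 with the higher one in low. Over all tested genes these counts were 5335 and 5596. The median log2 difference was -0.051 for the list, beside -0.0049 over all tested genes. In limma 0 substrate genes passed the adjusted threshold. At an unadjusted p under 0.05 were 2 of them, both higher in high, where 4.55% of all tested genes were called and 2.27% were higher in high. CDC25A, a cell cycle phosphatase that BTRC marks, had 1.82 ± 0.371 RPKM in high and 1.16 ± 0.486 RPKM in low (unadjusted p = 0.0293, limma), and MTOR, a kinase that FBXW7 marks, had 6.94 ± 1.33 RPKM in high and 5.32 ± 0.864 RPKM in low (unadjusted p = 0.0425, limma). MYC had 7.21 ± 2.57 RPKM in high and 7.31 ± 2.45 RPKM in low.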

How the data were processed

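RNA of 10 pig liver samples was measured by RNA sequencing, with TruSeq v2 libraries per the labels' protocols. The authors deposited RPKM values per Ensembl gene and library, with the authors' signed fold and p-value for each gene, per the file headers; the fold is used here as a deposited score of unstated origin. Per the submitters' processing notes the genome build was Sscrofa10.2. The aligner and counter, not given in the sources used here, could affect low and overlapping genes. Dots that group digits in large deposited RPKM values were removed.

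Values were analysed as log2(RPKM + 1). The 10931 genes averaging 1 RPKM or more over all libraries were fitted with limma 3.58.1 in R 4.3.3 (trend, two-sided), with group or the acute-phase level as predictor, and p-values were adjusted by Benjamini-Hochberg over all of them, at 0.05. The fit was tested on simulated data. Correlations used 100000 permutations, and groups took the labels' phenotype. Replicate numbers only name samples. RPKM gives no counts, so the absolute depth is unknown and no counting interval is given.

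Ensembl identifiers were given symbols through a name table. No sequences or coordinates are printed. Members, gene lists and tests were chosen with earlier results of these data known. The named genes were FBXO39, CUL1, SKP2, members with an unadjusted p under 0.05, the 8 most abundant, the 8 most variable and 10 with known roles (FBXL21 and FBXW2 are not analysed here), with up to 2 per pathway list. Of these, 2 genes are not reported here. FBXW4, FBXO24, FBXL17, FBXO38, FBXL12, FBXO10, FBXO15, FBXO30, the low members, IREB2, MYC and BTRC were named after their values were seen. Alternatives were another pseudocount (0.1), no filter or one at 0.5 RPKM, quantile or trimmed-mean scaling, robust variance, covariates, either part of the acute-phase list and leaving out libraries.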

Additional observations from a re-analysis of the deposited data

How the results depend on the processing

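With limma, 0 genes and 0 members passed between high and low under all alternatives run, and FBXO39 kept an unadjusted p under 0.05 in each. With SLC13A5 added as a covariate it did so too. The count of all genes at an unadjusted p under 0.05, 497 of 10931, was 912 of 18768 without a filter, where more genes enter. It was 199 without high replicates 1 and 5 together. With single libraries left out it was 280 (without high replicate 1) to 819 (without low replicate 2), and 331 without low replicate 4. The count of members, 1, was 2 without a filter (FBXO15 added) and with quantile normalization (FBXL17 added), and 1 to 2 with single libraries left out (FBXO7 added without high replicate 2, FBXL17 without low replicate 1).

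Along the acute-phase level, the 257 genes past the threshold (genes of the list itself included) became 477 with pseudocount 0.1, 39 without a filter, 406 with quantile normalization, 103 with trimmed-mean scaling, 523 and 0 with the first and the second part of the list, 11 without the 2 farthest libraries (chosen after seeing the data), and 0 (without low replicate 4) to 384 (without low replicate 3) with single libraries left out. It was 105, 38, 83 and 126 without high replicates 1, 2, 3 and 4, and 30 without low replicate 2. Members past the threshold were 0, and 1 with quantile normalization (FBXW4, adjusted p = 0.0477, limma). Members at an unadjusted p under 0.05 with a positive slope, 2, were 1 with quantile normalization, 0 without the 2 farthest libraries and 1 to 2 with single libraries left out. Those with a negative slope, 4, were 8 with quantile normalization, 1 with the second part, 0 without the 2 farthest libraries and 1 to 5 with single libraries left out. In the main fit 17.5% of genes outside the list were called with a positive slope and 10.0% with a negative one. Such shares were not computed for the alternatives, so the member counts there cannot be set against all genes. The cause of the changes was not tested.

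Directions turned in uncalled values, none with an unadjusted p under 0.418 (limma): in 53 of 451 log2 differences of named genes, over 13 of 25 genes, and in 15 of 475 slopes, over 7 genes. Among them, FBXO21 was 0.13 without high replicate 3, FBXO24 0.089 without low replicate 4 and 0.10 without high replicates 1 and 5, SKP2 0.072 and FBXW7 -0.055 without high replicate 1, and FBXW11 -0.0034 without high replicates 1 and 5. The slope of FBXO39 ran from -0.56 to 0.081 (without low replicate 4) with single libraries left out, and without the 2 farthest libraries the slopes of SKP2, FBXO48 and FBXO10 were 0.11, 0.24 and 0.24.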
